A study of Mus musculus with 16 samples.

Results

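The genes described here are those through which sterol regulatory element-binding proteins (SREBPs) drive the making of cholesterol and fatty acids: 23 genes of the sterol branch and 11 of the fatty acid branch, 34 in all. The rule names them as a pathway and uses no measured value, though they were chosen with earlier results of these data known. Every array probe whose accession matched one of them was taken, which gave 47 of the 55681 probes on the array. A probe was kept where it was well above background on at least 3 arrays of 1 group. That left 46 probes of 33 member genes, out of 29690 kept probes of 22024 genes or transcripts. The only probe of Cyp51, lanosterol 14-demethylase, was not well above background on any of the 16 arrays, where its log2 ratios lay between -0.28 and 0.63, and it was not tested. Each gene is described by its brightest kept probe, and 12 members had more than 1 kept probe.

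Livers came from female B6C3F1 mice, 5 to 6 weeks old when bought, that were gavaged for 21 days with corn oil that held furan (8 mg/kg body weight) or with corn oil alone and killed 4 h after the last dose. Furan is a volatile compound formed when food is heated, and the liver oxidizes it to a reactive dialdehyde. The 4 groups were livers of furan mice and of corn oil mice held in formalin for 18 h, and livers of furan mice and of corn oil mice held in formalin for 3 weeks, each with 4 arrays, all then embedded in paraffin. RNA was drawn from 1 section of 10 µm per liver after 18 h and from 2 such sections after 3 weeks, so fixation time and the number of sections cannot be told apart, and its RNA integrity numbers ran from 1.3 to 2.4. Each array set a liver's RNA, in Cy5, against a pool of all the samples, in Cy3, with no dye swap, so a value of 0 on the log2 scale used throughout is the level in that pool. Corn oil arrays 2.1 and 2.2 at 3 weeks were taken as 1 animal, which the labels do not state, and averaged into 1 sample, leaving 15 samples and 3 in that group. Samples of both treatments carry the same numbers at both fixation times, furan 41, 42, 43 and 44 and corn oil 2, 3, 4 and 6, or 2, 4 and 6 at 3 weeks, and values are listed in that order. Nothing in the labels says that replicates within a group were independent beyond their numbers, so the p-values speak only of the spread between these samples.

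SREBP-2 and SREBP-1c are made as membrane proteins of the endoplasmic reticulum. When membrane cholesterol is low, the escort protein SCAP carries them to the Golgi, where they are cleaved and free a transcription factor, and INSIG proteins hold SCAP back when sterols are plentiful. SREBP-2 mainly drives the mevalonate and cholesterol pathway, and SREBP-1c mainly drives fatty acid synthesis and desaturation in the liver, where insulin and liver X receptors also raise it.

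The factors bind sterol regulatory elements in promoters, often beside a CCAAT box bound by NF-Y. Promoter windows of 250 bases before the transcription start were at hand for 28 of the 34 members (36 windows, RefSeq, GRCm38.p6). The letters TCACNCCAC, one form of the element, were searched on both strands and lay in 1 of the 36 member windows, that of Hmgcs1, at 137 bases before the start, against 1.05% of 32851 windows of all genes. CCAAT lay on either strand in 23 of the 36 member windows, and in 33.8% of all windows. The GC box GGGCGG lay in 24 member windows and 32.7% of all, and the E box CACGTG in 6 member windows and 6.02% of all. Shown here are the windows of the 6 members that, among those with a window, differed most between furan and corn oil livers after 18 h by their brightest probes, with matches to the element and to CCAAT (read as ATTGG on the other strand) in capitals.
Hmgcs1, chr13:119690101-119690350, plus strand: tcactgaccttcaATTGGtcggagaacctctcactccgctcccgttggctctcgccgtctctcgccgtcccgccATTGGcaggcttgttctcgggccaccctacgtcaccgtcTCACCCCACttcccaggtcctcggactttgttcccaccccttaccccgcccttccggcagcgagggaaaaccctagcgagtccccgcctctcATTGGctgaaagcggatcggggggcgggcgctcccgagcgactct
Idi1, chr13:8885356-8885605, plus strand: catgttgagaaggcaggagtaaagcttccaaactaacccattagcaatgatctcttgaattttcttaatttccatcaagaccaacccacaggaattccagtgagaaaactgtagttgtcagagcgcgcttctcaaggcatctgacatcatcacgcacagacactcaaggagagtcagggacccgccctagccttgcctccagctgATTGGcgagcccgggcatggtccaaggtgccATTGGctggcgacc
Insig1, chr5:28071162-28071411, plus strand: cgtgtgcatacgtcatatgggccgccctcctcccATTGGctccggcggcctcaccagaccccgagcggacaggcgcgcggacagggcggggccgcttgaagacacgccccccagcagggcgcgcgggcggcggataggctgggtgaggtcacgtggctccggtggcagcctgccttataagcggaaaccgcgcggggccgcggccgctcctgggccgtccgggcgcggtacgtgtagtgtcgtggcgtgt
Fads2, chr19:10101504-10101753, minus strand: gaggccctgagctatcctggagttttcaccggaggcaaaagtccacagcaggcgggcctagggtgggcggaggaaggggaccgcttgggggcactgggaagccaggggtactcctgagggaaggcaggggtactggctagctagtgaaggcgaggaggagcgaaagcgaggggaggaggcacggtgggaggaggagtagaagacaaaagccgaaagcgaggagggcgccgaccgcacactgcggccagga
Thrsp, chr7:97417551-97417800, minus strand: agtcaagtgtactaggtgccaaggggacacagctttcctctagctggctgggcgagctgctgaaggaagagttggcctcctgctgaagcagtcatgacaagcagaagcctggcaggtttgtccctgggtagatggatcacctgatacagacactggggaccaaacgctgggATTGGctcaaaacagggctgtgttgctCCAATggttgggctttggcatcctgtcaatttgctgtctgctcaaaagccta
Tm7sf2, chr19:6067851-6068100, minus strand: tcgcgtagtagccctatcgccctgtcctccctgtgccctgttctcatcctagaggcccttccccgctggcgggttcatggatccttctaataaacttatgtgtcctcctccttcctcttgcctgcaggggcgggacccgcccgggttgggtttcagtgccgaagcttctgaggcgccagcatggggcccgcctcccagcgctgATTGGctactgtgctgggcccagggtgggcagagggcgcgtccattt
The window of Fads2 holds neither motif, those of Insig1 and Tm7sf2 hold CCAAT at 1 place each, those of Thrsp and Idi1 at 2 places each, and that of Hmgcs1 at 3 places. Such a match describes the letters and does not show that a factor binds there.

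After 18 h in formalin, 7 members were higher and 6 lower in furan than in corn oil livers, and 20 did not pass the test (limma with slide as a term, Benjamini-Hochberg adjusted p under 0.05 over all kept probes). The same test called 48.2% of all 22024 genes by their brightest probe, 21.7% higher and 26.6% lower, so 13 called members of 33 is no more than that background. All 7 that rose belong to the sterol branch, where 3 of 22 fell and 12 did not pass. In the fatty acid branch none of 11 rose, 3 fell and 8 did not pass. That split of the risers depended on the scaling: Acly and Acaca also passed as higher with the authors' deposited values, and Acly, Acaca and Elovl5 did under median centring. The branch medians were 0.17 for sterol and -0.23 for fatty acid genes, beside -0.04 over all genes. With each array centred on its median in place of the loess curve the fatty acid median turned to 0.21 and the sterol median stood at 0.71, while the median over all probes moved to 0.10. The plot of furan differences by gene shows both branches at both fixation times.

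**Figure D1:**
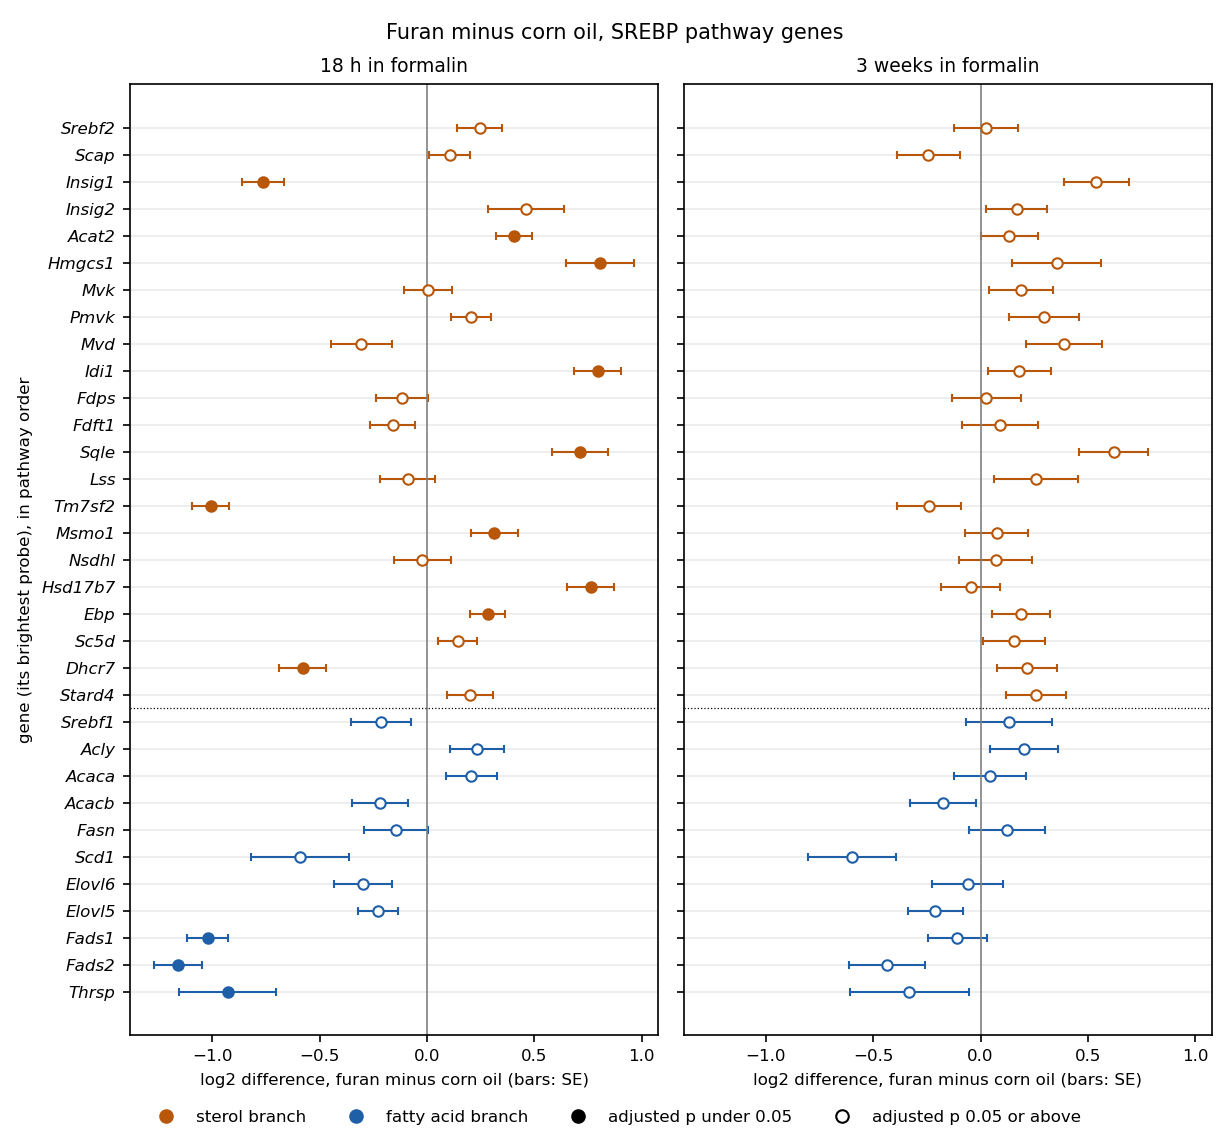
Difference between furan and corn oil livers (x axis, log2, with SE) for the brightest probe of each of 33 members in pathway order (y axis), after 18 h (left) and 3 weeks in formalin (right). Filled points had an adjusted p under 0.05: 13 after 18 h, with the risers all in the sterol branch, and 0 after 3 weeks.

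Several other measures moved with furan after 18 h. Probes well above background made up 54.0% ± 1.48 of all in furan livers and 47.5% ± 3.21 in corn oil livers (SD, n = 4 each, exact permutation p = 0.0286, the smallest that 4 against 4 can give). With that share as a covariate, an alternative added after the data were seen, 0 members passed, and 491 of all 29690 probes did. The share ran from 52.2% to 55.5% in furan livers and from 44.6% to 50.4% in corn oil livers. As these ranges did not overlap, the covariate and furan cannot be told apart, and no conclusion is drawn from that fit. Of 7 hepatocyte marker genes 6 fell, with a median of -0.84, and their mean ratio per sample ran from -0.26 to -0.10 in furan livers and from 0.50 to 0.67 in corn oil livers. Of 6 adipocyte markers 4 were kept (Plin1 and Lep were not), 1 rose and 1 fell, and their mean ran from -0.44 to 0.29 in furan livers and from -0.22 to -0.02 in corn oil livers. Of 4 kept erythroid markers 3 fell, with a mean of -0.64 to -0.40 in furan livers and -0.02 to 0.21 in corn oil livers. Of the markers of stellate cells 4 of 6 fell and 1 rose, of endothelial cells 3 of 5 fell and 1 rose. Of kept macrophage markers 2 of 5 fell and of kept cholangiocyte markers 1 of 2 fell. Cd68, Krt19, Sox9 and Epcam had no kept probe. The cholangiocyte marker that fell, Spp1, was well above background on 2 of 4 furan arrays, and Cdh5, the endothelial one that rose, on 1 of 4 corn oil arrays. All these marker counts stand beside 48.2% of all genes called, 21.7% higher and 26.6% lower. The part of these measures in the members' differences was not tested. In whole tissue, fewer cells of a type and less RNA per cell cannot be told apart.

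Among the regulators of the pathway, Insig1 fell after 18 h and Insig2 was called by only 1 of its 2 probes. Insig1, itself a sterol-responsive SREBP target, had 0.15, -0.18, -0.09 and -0.12 in furan livers and 0.74, 0.65, 0.83 and 0.59 in corn oil livers. No furan liver reached the lowest corn oil liver, and Insig1 fell by 0.76 on the log2 scale, or 1.70-fold (SE 0.10, adjusted p = 0.000153), with -0.75 on slide 1 and -0.77 on slide 2. Under median centring its difference was -0.25 and no longer passed (adjusted p = 0.0971). Insig2, the second retention protein, had 0.36, 0.30, 0.25 and 0.52 in furan livers and 0.31, 0.08, -0.14 and -0.67 in corn oil livers. These ranges overlapped and the difference of 0.46 did not pass by the brightest probe (SE 0.18, adjusted p = 0.0505). A second Insig2 probe read 0.64, 0.45, 0.64 and 0.54 in furan livers and -0.15, -0.31, -0.45 and -1.02 in corn oil livers, a rise of 1.05, or 2.07-fold, with no overlap (SE 0.16, adjusted p = 0.000487).

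The transcripts of the SREBPs and of their escort did not pass by their brightest probes. Srebf2, which encodes SREBP-2, had -0.26, -0.37, -0.06 and -0.14 in furan livers and -0.28, -0.47, -0.39 and -0.67 in corn oil livers, a difference of 0.25 (SE 0.11, adjusted p = 0.0763). Its second probe went the other way, with 0.34, 0.03, 0.15 and 0.10 in furan livers and 1.00, 0.56, 0.43 and 0.70 in corn oil livers, a fall of 0.52 on the log2 scale with no overlap (difference -0.52, SE 0.12, adjusted p = 0.00507). The direction of Srebf2 is therefore not settled by these arrays. Srebf1, which encodes SREBP-1a and SREBP-1c, had -0.75, -0.30, 0.11 and 0.08 in furan livers and -0.07, 0.01, -0.32 and 0.38 in corn oil livers. Its ranges overlapped widely and the difference was -0.22 (SE 0.14, adjusted p = 0.223). Scap had 0.34, 0.22, 0.28 and -0.01 in furan livers and 0.06, 0.11, 0.04 and 0.19 in corn oil livers, a difference of 0.11 that did not pass.

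Of the 7 enzymes from acetoacetyl-CoA to farnesyl pyrophosphate, 3 rose and none fell. Hmgcs1, which makes HMG-CoA and whose promoter window is shown above, had 0.31, -0.15, 0.45 and 0.23 in furan livers and -0.25, -0.41, -0.87 and -0.85 in corn oil livers. The lowest furan liver lay just above the highest corn oil liver, and the difference of 0.81 was a 1.75-fold rise (SE 0.16, adjusted p = 0.00198). Idi1, which turns isopentenyl into dimethylallyl pyrophosphate, had 0.32, 0.00, 0.26 and 0.01 in furan livers and -0.46, -0.66, -0.68 and -0.80 in corn oil livers. The groups stood well apart, with a rise of 0.80, or 1.74-fold (SE 0.11, adjusted p = 0.00025). Acat2, the cytosolic acetoacetyl-CoA thiolase, had 0.57, 0.59, 0.47 and 0.32 in furan livers and 0.01, 0.26, 0.06 and -0.01 in corn oil livers, a 1.33-fold rise (0.41, SE 0.08, adjusted p = 0.00263). The other 4 did not pass by their brightest probes. Mvd, the decarboxylase of the pathway, had -0.09, -0.26, 0.08 and -0.09 in furan livers and 0.53, 0.44, -0.09 and -0.02 in corn oil livers (difference -0.30). Pmvk, phosphomevalonate kinase, differed by 0.20 and Fdps, farnesyl pyrophosphate synthase, by -0.12. Mvk, mevalonate kinase, differed by 0.01, while its second probe fell by 0.61 on the log2 scale (difference -0.61, adjusted p = 0.00214).

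From squalene to cholesterol, 4 of 10 tested enzymes rose and 2 fell. Sqle, squalene epoxidase, had -0.41, -0.74, -0.20 and -0.69 in furan livers and -1.02, -1.16, -1.33 and -1.38 in corn oil livers. Every furan liver was above every corn oil liver, a 1.64-fold rise (0.71, SE 0.13, adjusted p = 0.00139). Ebp, a sterol isomerase, had -0.34, -0.32, -0.43 and -0.30 in furan livers and -0.58, -0.67, -0.62 and -0.67 in corn oil livers, a smaller rise of 1.22-fold (0.28, SE 0.08, adjusted p = 0.0137). Msmo1, a sterol methyl oxidase, rose by 0.31 with overlapping groups (SE 0.11, adjusted p = 0.0358), and it passed in only 2 of the 8 fits that left out 1 sample, with an adjusted p of up to 0.0983. Tm7sf2, a sterol 14-reductase, had -0.26, -0.37, -0.50 and -0.29 in furan livers and 0.69, 0.60, 0.66 and 0.66 in corn oil livers. It fell 2.01-fold by this probe (-1.01, SE 0.09, adjusted p = 2.06e-05), while its second probe differed by -0.16 and did not pass (adjusted p = 0.211). Dhcr7, the last reductase of one route to cholesterol, had values of -0.33 to 0.04 in furan livers and 0.22 to 0.53 in corn oil livers and fell 1.49-fold (-0.58, SE 0.11, adjusted p = 0.00146), though with -0.16 under median centring it did not pass (adjusted p = 0.314).

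Hsd17b7, a 3-ketosteroid reductase of the sterol pathway, gave opposite calls from its 2 probes. The brighter one had 0.37, -0.02, 0.51 and 0.40 in furan livers and -0.25, -0.47, -0.50 and -0.55 in corn oil livers, a rise of 0.76 (SE 0.11, adjusted p = 0.000339). The other had 0.11, -0.11, 0.06 and 0.07 in furan livers and 0.62, 0.62, 0.60 and 0.50 in corn oil livers, a fall of 0.55 on the log2 scale (difference -0.55, adjusted p = 0.000483). Neither pair of groups overlapped, so the count of 7 sterol genes that rose includes a gene whose direction depends on the probe. Fdft1, squalene synthase, differed by -0.16 by its brightest probe, with 0.53, 0.22, 0.32 and 0.14 in furan livers and 0.60, 0.47, 0.48 and 0.30 in corn oil livers, and rose by 0.48 by its other probe (adjusted p = 0.00142). Nsdhl, a sterol dehydrogenase, likewise differed by -0.02 and, by its other probe, rose by 0.48 (adjusted p = 0.00592), where 2 of 4 corn oil arrays measured it well above background. Lss, lanosterol synthase, and Sc5d, a sterol desaturase, differed by -0.09 and 0.14 and did not pass. Stard4, a cytosolic sterol carrier, had 0.19, 0.09, 0.17 and 0.16 in furan livers and -0.19, -0.27, 0.06 and 0.20 in corn oil livers, a difference of 0.20 that did not pass, and its other probe fell by 0.27 on the log2 scale (difference -0.27, adjusted p = 0.0345), with 2 furan and 3 corn oil arrays well above background.

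In the fatty acid branch, 2 of the 3 desaturases and Thrsp fell. Fads2, delta-6 desaturase of the route to long polyunsaturated fatty acids, had -0.15, -0.28, -0.17 and -0.10 in furan livers and 0.91, 0.98, 0.71 and 1.32 in corn oil livers, and fell 2.23-fold (-1.16, SE 0.11, adjusted p = 3.4e-05). Fads1, the delta-5 desaturase of the same route, had -0.50, -0.31, -0.60 and -0.49 in furan livers and 0.62, 0.38, 0.57 and 0.61 in corn oil livers, a 2.03-fold fall (-1.02, SE 0.10, adjusted p = 3.21e-05). Both genes had every furan liver below every corn oil liver, and both kept their calls on either slide alone. Scd1, the delta-9 desaturase that makes monounsaturated fatty acids, had 0.86, 0.02, -0.19 and -0.12 in furan livers and 0.10, 0.95, 0.72 and 1.17 in corn oil livers. Furan sample 41 lay among the corn oil livers and corn oil sample 2 among the furan livers, and the difference of -0.59 did not pass (SE 0.23, adjusted p = 0.0537).

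Thrsp (Spot 14), a protein that aids lipogenesis and responds to thyroid hormone and carbohydrate, had -0.28, -1.13, -0.08 and -0.44 in furan livers and 0.16, 0.30, 0.12 and 1.20 in corn oil livers. It fell 1.90-fold with no overlap (-0.93, SE 0.23, adjusted p = 0.0065), with wide spread in both groups, and at -0.40 under median centring it did not pass (adjusted p = 0.0614). The 4 genes that supply and build palmitate did not pass by their brightest probes. Fasn, fatty acid synthase, had 0.50, -0.17, 0.25 and 0.43 in furan livers and 0.23, 0.45, 0.23 and 0.67 in corn oil livers, so the groups overlapped and the difference was -0.14 (SE 0.15, adjusted p = 0.447). Acly, which cleaves citrate to cytosolic acetyl-CoA, had 0.04, -0.46, 0.04 and 0.00 in furan livers and -0.44, -0.47, -0.37 and -0.04 in corn oil livers (difference 0.23, adjusted p = 0.146). The acetyl-CoA carboxylases Acaca, which supplies malonyl-CoA for synthesis, and Acacb, which supplies it at mitochondria, differed by 0.21 and -0.22. For each of them another probe fell. For Acaca it differed by -1.15, with -0.36 to 0.04 in furan livers and 0.65 to 1.27 in corn oil livers (adjusted p = 9.68e-05). For Acacb it differed by -1.07, with -0.70 to -0.43 in furan livers and 0.42 to 0.67 in corn oil livers (adjusted p = 2.18e-05). The elongases did not pass. Elovl5 had 0.14, -0.17, -0.01 and 0.11 in furan livers and 0.20, 0.19, 0.28 and 0.31 in corn oil livers, which did not overlap (-0.23, adjusted p = 0.0637), and Elovl6 had 0.18, -0.44, 0.16 and 0.06 in furan livers and 0.26, 0.07, 0.21 and 0.62 in corn oil livers (-0.30, adjusted p = 0.0894).

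**Figure D2:**
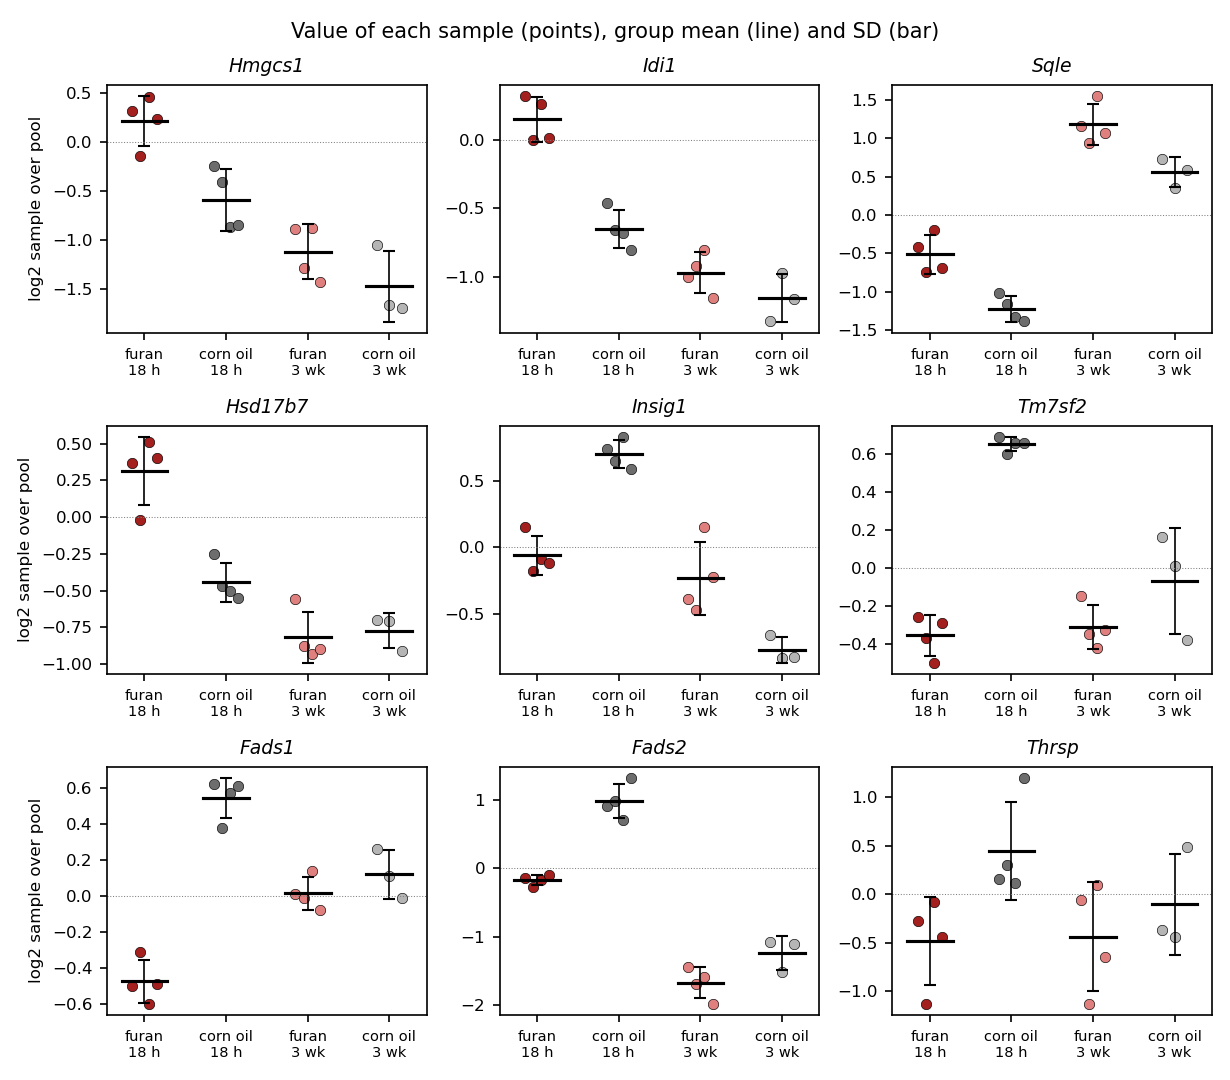
Log2 ratio of each sample to the reference pool (y axis) for 9 members in the 4 groups (x axis), with the group mean and SD, n = 4 and for corn oil at 3 weeks n = 3. Insig1 was lower in furan than in corn oil livers after 18 h, but higher in every furan than every corn oil liver after 3 weeks. Sqle was higher in furan livers at both times. By limma neither difference passed after 3 weeks (adjusted p = 0.19 for Insig1 and 0.163 for Sqle).

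Of the 12 members with more than 1 kept probe, 7 had another probe called after 18 h with a sign opposite to that of the brightest one. These were Srebf2, Mvk, Fdft1, Nsdhl, Hsd17b7, Stard4 and Acaca, and of them only Hsd17b7 was called by both probes. In 2 more, Insig2 and Acacb, the other probe was called with the same sign as an uncalled brightest probe. Such disagreements were not counted over all genes, where 14025 of 29690 probes were called after 18 h. Whether the members disagree more often than other genes was therefore not tested. When all kept probes of a gene were averaged, the directions of Mvk and Acaca after 18 h turned to -0.30 each, and 7 members rose and 9 fell. Across all 22024 genes this averaging called 10156 genes, beside 10624 by brightest probes.

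**Figure D3:**
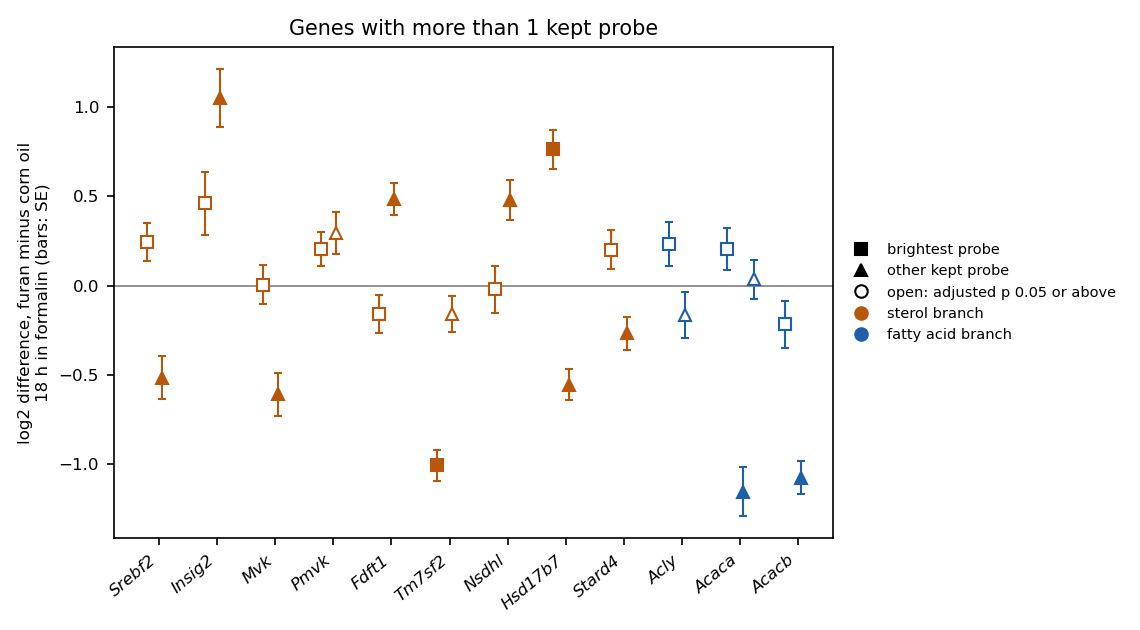
Difference between furan and corn oil livers after 18 h (y axis, log2, with SE) by each kept probe of the 12 members that have more than 1 (x axis). Squares are brightest probes and triangles the others, filled where the adjusted p was under 0.05; in Hsd17b7 the 2 probes were called at 0.76 and -0.55.

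The pathway's other genes were taken from a list of 30, of which 27 were kept, and after 18 h 6 of them rose, 11 fell and 10 did not pass, with a median of 0.00, beside the 48.2% of all genes called. Among those that rose, Rdh11, a retinol dehydrogenase under SREBP control, did so by 0.67 (SE 0.11, adjusted p = 0.000618). Ggps1, which makes geranylgeranyl pyrophosphate, rose by 0.39 (adjusted p = 0.00543), Tmem97, a sterol-regulated membrane protein, by 0.33 (adjusted p = 0.0165), Nr1h2, liver X receptor beta, by 0.40 (adjusted p = 0.00197) and Abcg5, a sterol exporter subunit, by 0.26 (adjusted p = 0.02). The falls were led by Rxra, the partner of liver X receptors, at -1.32 (SE 0.10, adjusted p = 1.16e-05) and Pklr, liver pyruvate kinase, at -1.22 (SE 0.15, adjusted p = 0.00013). Me1, which supplies NADPH for lipogenesis, fell by 0.66 on the log2 scale (difference -0.66, adjusted p = 0.002). Mylip, an E3 ligase for lipoprotein receptors, fell by 0.63 on the log2 scale (difference -0.63, adjusted p = 0.000311), and was well above background on 2 of 4 furan and 4 of 4 corn oil arrays. Soat2, which esterifies cholesterol, fell as well (-0.49, adjusted p = 0.0013), as did Abca1, a cholesterol exporter (-0.43, adjusted p = 0.00421). Nfyb (-0.46), Lpin1 (-0.50), Dgat2 (-0.33) and Abcg8 (-0.29) also fell. The count of 11 includes Nfya, another NF-Y subunit, which none of the 18 h arrays measured well above background, so no fold is given for it. Mbtps2, Pnpla5 and Elovl3 had no kept probe.

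After 3 weeks in formalin, 0 of 33 members passed the test with limma between furan and corn oil livers, where 0.136% of all 22024 genes did, 0.104% higher and 0.0318% lower. At an unadjusted p under 0.05 the sterol branch had 2 members higher, Sqle and Insig1, and the fatty acid branch 2 lower, Scd1 and Fads2, while 4102 of all 29690 probes lay under it, so these 4 members are no more than the background. The sterol median was 0.17, with 19 of 22 genes above 0, and the fatty acid median -0.11, with 4 of 11 above 0, beside 0.00 over all genes. Under median centring the fatty acid median turned to 0.18, the sterol median rose to 0.48 and 11 members were called, all of them higher, while 2317 of 29690 probes were called and the median over all probes moved to 0.09. The share of probes above background was 38.2% ± 2.41 in furan livers (SD, n = 4) and 34.2% ± 1.81 in corn oil livers (n = 3, exact permutation p = 0.0571, where 0.0286 is the smallest possible). The hepatocyte marker mean ran from -1.09 to -0.61 in furan livers and from -0.74 to -0.32 in corn oil livers. The erythroid marker mean ran from -0.29 to -0.03 in furan livers and from 0.04 to 0.10 in corn oil livers. The part of these was not tested. With arrays 2.1 and 2.2 as separate samples 0 members passed by limma again, while 322 of all probes did, in place of 35.

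Sqle after 3 weeks had 1.16, 0.94, 1.55 and 1.06 in furan livers and 0.73, 0.35 and 0.59 in corn oil livers. All furan livers were above all corn oil livers, and the difference of 0.62 had an adjusted p of 0.163 (limma with Benjamini-Hochberg, SE 0.16). It passed without background subtraction (adjusted p = 0.0413), with the authors' deposited values (adjusted p = 0.0445) and under median centring (adjusted p = 0.00054). Insig1 had -0.39, -0.47, 0.15 and -0.22 in furan livers and -0.66, -0.83 and -0.82 in corn oil livers. Its groups did not overlap either, with furan livers higher by 0.54 (SE 0.15, adjusted p = 0.19), 0.25 on slide 1 and 0.77 on slide 2. Mvd had 0.53, 0.04, 0.57 and 0.18 in furan livers and 0.15, -0.34 and 0.02 in corn oil livers (difference 0.39, adjusted p = 0.37). Stard4 had -0.29, -0.33, -0.31 and -0.48 in furan livers and -0.82, -0.45 and -0.56 in corn oil livers (difference 0.26, adjusted p = 0.451). In both genes the groups overlapped.

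Hmgcs1, which had risen after 18 h, had -0.89, -1.29, -0.88 and -1.43 in furan livers and -1.06, -1.67 and -1.70 in corn oil livers after 3 weeks. The difference of 0.35 did not pass (SE 0.21, adjusted p = 0.491). Idi1 had -1.0, -0.92, -0.80 and -1.15 in furan livers and -1.32, -0.97 and -1.16 in corn oil livers, which overlapped (0.18, adjusted p = 0.64). Tm7sf2 had -0.15, -0.35, -0.42 and -0.33 in furan livers and 0.16, 0.01 and -0.38 in corn oil livers (-0.24, adjusted p = 0.517). Hsd17b7 had -0.56, -0.88, -0.93 and -0.90 in furan livers and -0.70, -0.71 and -0.91 in corn oil livers, a difference of -0.05. Its other probe was higher in furan livers by 0.33 with no overlap (adjusted p = 0.379), but was above background on 1 of 4 corn oil arrays. The regulators Srebf2, Insig2, Scap and Srebf1 differed by 0.03, 0.17, -0.24 and 0.13, and none passed.

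In the fatty acid branch after 3 weeks, Scd1 had -1.12, -1.78, -2.14 and -2.02 in furan livers and -1.46, -1.02 and -1.03 in corn oil livers. Furan sample 41 again lay among the corn oil livers, and the difference of -0.60 did not pass (SE 0.20, adjusted p = 0.24). Fads2 had -1.44, -1.69, -1.59 and -1.98 in furan livers and -1.08, -1.52 and -1.11 in corn oil livers (-0.44, SE 0.18, adjusted p = 0.31). Fads1 had 0.01, -0.01, 0.14 and -0.08 in furan livers and 0.26, 0.11 and -0.01 in corn oil livers, a difference of -0.11 against -1.02 after 18 h. Elovl5 had -1.59, -1.60, -1.61 and -1.53 in furan livers and -1.32, -1.33 and -1.47 in corn oil livers, with no overlap but an adjusted p of 0.502 (limma, -0.21). Acly had 0.52, 0.30, 0.47 and 0.40 in furan livers and -0.01, 0.09 and 0.57 in corn oil livers (0.20, adjusted p = 0.617). Thrsp had -0.06, -1.13, 0.09 and -0.65 in furan livers and -0.37, -0.44 and 0.49 in corn oil livers, with overlapping ranges (-0.33, adjusted p = 0.652). Fasn was well above background on 1 of 4 furan arrays and 0 of 4 corn oil arrays after 3 weeks, with -0.62, -0.82, -0.14 and -0.42 in furan livers and -0.41, -0.62 and -0.84 in corn oil livers, so no fold is given for it. The second Acacb probe, which had fallen after 18 h, differed by -0.54 after 3 weeks with no overlap (adjusted p = 0.132).

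Whether the furan difference itself differed between 3 weeks and 18 h was tested as an interaction in a fit of all 15 samples. This test called 7 members, 5 with a difference higher at 3 weeks and 2 with one lower, against 12.6% of all genes, 7.43% higher and 5.16% lower. Insig1 had the largest interaction, 1.30 (SE 0.19, adjusted p = 0.001): furan livers were lower than corn oil livers after 18 h and higher after 3 weeks. For Fads1 (0.91, adjusted p = 0.00175), Dhcr7 (0.80, adjusted p = 0.007), Tm7sf2 (0.76, adjusted p = 0.0074) and Fads2 (0.72, adjusted p = 0.0329) the negative difference of 18 h was smaller or turned at 3 weeks. For Hsd17b7 (-0.81, adjusted p = 0.0114) and Idi1 (-0.62, adjusted p = 0.031) the positive one was smaller or turned. Leaving out 1 sample at a time kept the calls of Insig1, Fads1, Dhcr7, Tm7sf2 and Hsd17b7 in 15 of 15 fits, but that of Fads2 in 7, with an adjusted p of up to 0.0792 in limma, and that of Idi1 in 6, with one of up to 0.072. Hsd17b7 is again the gene whose other probe went the opposite way, with an interaction of 0.88 (adjusted p = 0.00351). The other probe of Tm7sf2 was not called, at 0.10 (adjusted p = 0.70). Sqle showed no such change: its interaction was -0.09 (SE 0.21, adjusted p = 0.808).

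The comparison of 3 weeks with 18 h in formalin was made within each treatment and shares its samples with the furan comparisons. In furan livers 13 members were higher and 16 lower after 3 weeks than after 18 h, where 68.8% of all genes were called, 38.6% higher and 30.2% lower. In corn oil livers 8 were higher and 18 lower, where 60.3% of all genes were called, 31.8% higher and 28.5% lower. In both treatments 15 members were called lower and 8 higher, 1 was called in opposite directions and 2 were called in neither. Such joint counts were not made over all genes, so whether the members exceed that background was not tested. Centring on the median in place of loess moved the median over all probes to -0.29 in furan and -0.24 in corn oil livers. It left 5 and 4 members higher and made 20 and 24 lower, while 18469 and 16610 of all 29690 probes were called in either direction.

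**Figure D4:**
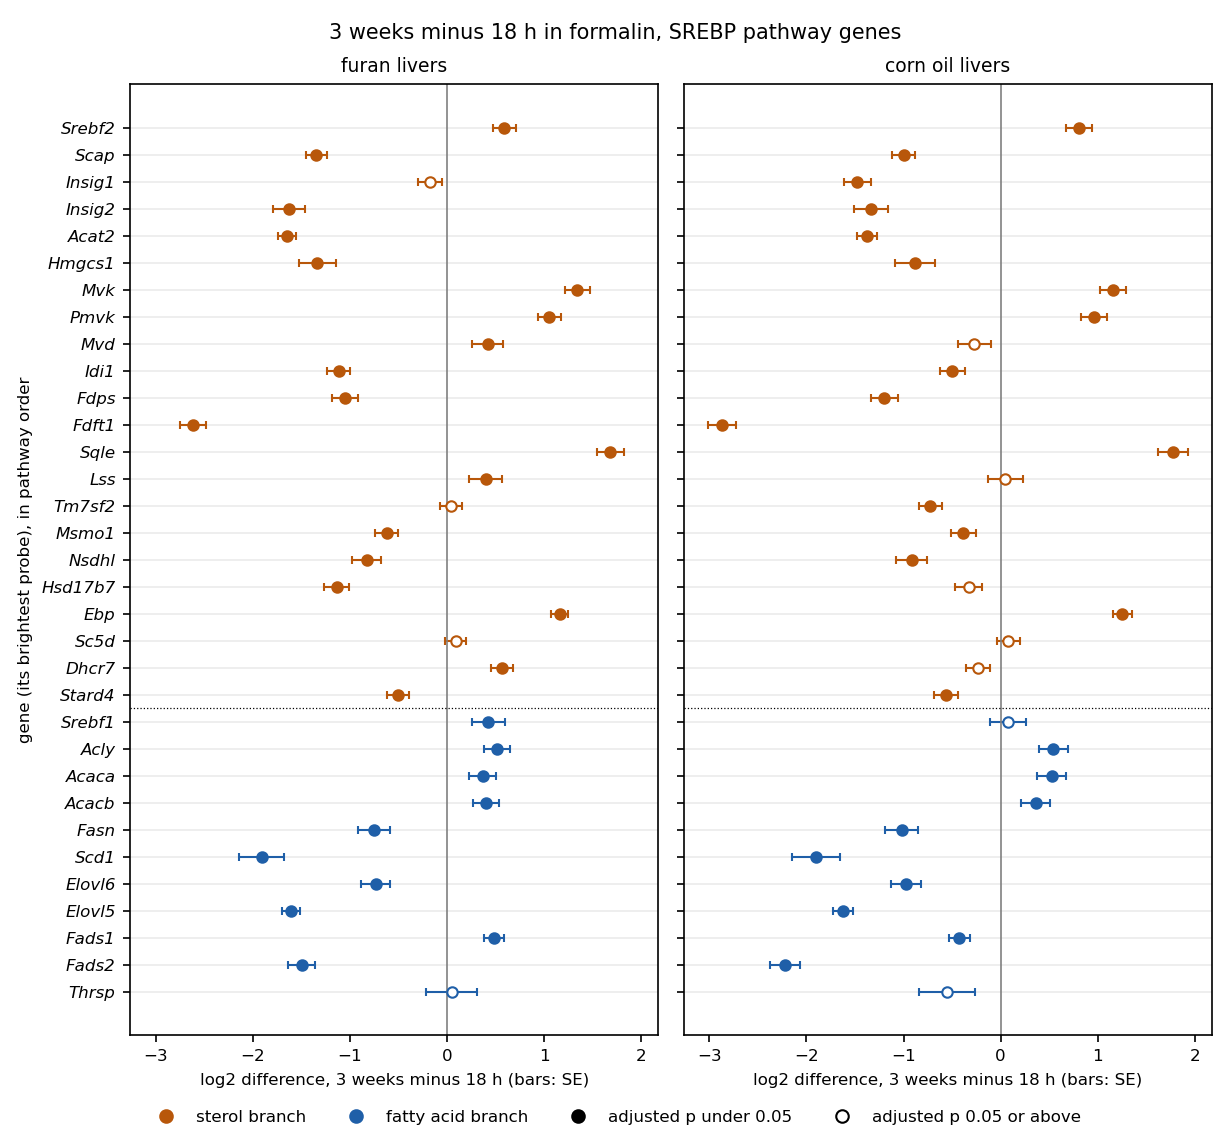
Difference between livers held in formalin for 3 weeks and for 18 h (x axis, log2, with SE) for the brightest probe of each of 33 members (y axis), in furan livers (left) and corn oil livers (right). Filled points had an adjusted p under 0.05; Fdft1 lies lowest at -2.62 and -2.87 and Sqle highest at 1.68 and 1.78.

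The spread among sterol enzymes was wide. Fdft1 had -1.97, -2.48, -2.35 and -2.47 in furan livers after 3 weeks, against 0.14 to 0.53 after 18 h, a 6.14-fold fall (-2.62, SE 0.14, adjusted p = 1.39e-10). In corn oil livers it had -2.19, -2.66 and -2.37 after 3 weeks, against 0.30 to 0.60 after 18 h, a 7.31-fold fall (-2.87, SE 0.15, adjusted p = 1.15e-10). Sqle, the next enzyme of the pathway, went the other way, 3.21-fold higher after 3 weeks in furan livers (1.68, SE 0.14, adjusted p = 3.16e-08) and 3.43-fold higher in corn oil livers (1.78, SE 0.15, adjusted p = 4.79e-08). Acat2 had -0.95, -1.05, -1.30 and -1.34 in furan livers and -1.13, -1.27 and -1.48 in corn oil livers after 3 weeks, and fell in both treatments, with log2 differences of -1.65 in furan and -1.38 in corn oil livers. Ebp had 0.79, 0.77, 0.96 and 0.71 in furan livers and 0.50, 0.64 and 0.74 in corn oil livers after 3 weeks, and rose by 1.16 in furan and 1.26 in corn oil livers. All these groups stood clear of their 18 h groups.

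The remaining sterol genes moved in both directions over fixation time. Pmvk rose by 1.05 in furan livers and 0.96 in corn oil livers by its brightest probe, but its other probe fell in both (-0.88, adjusted p = 2.53e-05, and -0.62, adjusted p = 0.00154). Mvk rose by 1.34 in furan livers and 1.16 in corn oil livers by its brightest probe, whereas its other probe fell in both (-0.74 and -1.33), and the mean of its probes in corn oil livers differed by -0.0859. Hmgcs1 fell in furan livers (-1.34) and in corn oil livers (-0.88), as did Idi1 (-1.12 and -0.50), Fdps (-1.05 and -1.20), Nsdhl (-0.83 and -0.92), Msmo1 (-0.62 and -0.38) and Stard4 (-0.50 and -0.56). Hsd17b7 fell in furan livers (-1.14) and differed by -0.33 in corn oil livers (adjusted p = 0.0507). Its other probe was called lower in both treatments. In corn oil livers that probe had means of 0.58 after 18 h and -0.73 after 3 weeks. At 3 weeks it was well above background on 1 of 4 corn oil arrays. Tm7sf2 fell in corn oil livers (-0.72) by its brightest probe, with 0.04 in furan livers. The other Tm7sf2 probe was called lower in both treatments. That probe had means of 0.16 after 18 h and -0.44 after 3 weeks in furan livers, and 0.31 and -0.38 in corn oil livers. Dhcr7 rose in furan livers (0.57), with -0.23 in corn oil livers, though under median centring Dhcr7 in furan livers was at -0.24. Mvd rose in furan livers (0.42), against -0.29 under median centring, and differed by -0.27 in corn oil livers. Lss rose in furan livers (0.40, adjusted p = 0.0465) and Sc5d was called in neither. Of the 8 fits that left out 1 furan sample, Lss passed in 1, with an adjusted p of up to 0.166, and Mvd in 4, with one of up to 0.102.

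Of the regulators, Scap had -1.05, -1.19, -1.11 and -1.19 in furan livers and -0.65, -0.91 and -1.13 in corn oil livers after 3 weeks, falls of -1.35 and -1.0. Insig2 had -1.30, -1.21, -1.37 and -1.18 in furan livers and -1.27, -1.66 and -1.38 in corn oil livers, falls of -1.62 and -1.33. Insig1 fell in corn oil livers (-1.47, adjusted p = 9.95e-08), whereas in furan livers its difference was -0.17 (adjusted p = 0.237), the other face of the interaction above. Srebf2 had 0.34, 0.45, 0.56 and 0.18 in furan livers and 0.49, 0.44 and 0.15 in corn oil livers, rises of 0.59 and 0.81 by the brightest probe, which turned to -0.03 and -0.21 when its probes were averaged. Srebf1 had -0.22, 0.36, 0.04 and 0.65 in furan livers and -0.10, -0.13 and 0.47 in corn oil livers. It rose by 0.43 in furan livers (adjusted p = 0.0368; it passed in 5 of 8 fits that left out 1 sample, with up to 0.147), against -0.42 under median centring, and differed by 0.08 in corn oil livers.

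In the fatty acid branch, desaturases and elongases were lower after 3 weeks in most cases while Acly, Acaca and Acacb were higher by their brightest probes. Scd1 fell 3.76-fold in furan livers (-1.91) and 3.74-fold in corn oil livers (-1.90). Elovl5 fell in furan livers (-1.60, SE 0.09, adjusted p = 4.28e-10) and in corn oil livers (-1.62, SE 0.10, adjusted p = 1.02e-09). Elovl6, which elongates palmitate, had -0.66, -0.72, -0.81 and -0.80 in furan livers and -0.87, -0.89 and -0.30 in corn oil livers after 3 weeks, falls of -0.74 and -0.97. Fads2 fell 2.82-fold in furan livers (-1.50) and 4.66-fold in corn oil livers (-2.22). Fads1 was the member called in opposite directions, at 0.49 in furan livers (adjusted p = 0.000516) and -0.42 in corn oil livers (adjusted p = 0.00341), although with median centring the first was -0.0046. Acly rose by 0.52 in furan and 0.55 in corn oil livers, Acaca by 0.37 and 0.53 and Acacb by 0.40 and 0.36, but under median centring all 3 were below 0 in furan livers. For Acaca and Acly another probe of each fell in both treatments. For Acaca that probe differed by -1.06 in furan livers (adjusted p = 1.66e-05) and by -2.12 in corn oil livers, a 4.34-fold fall (adjusted p = 1.66e-08). The third Acaca probe was called in neither treatment. For Acly it differed by -0.63 in furan livers (adjusted p = 0.00555) and by -0.52 in corn oil livers (adjusted p = 0.0297), so the direction of both genes over fixation time depends on the probe. Leaving out 1 sample kept the call of Acaca in 4 of 8 fits in furan livers and that of Acacb in 6 of 8 in furan livers and 4 of 7 in corn oil livers. Fasn was at least 1.76-fold lower after 3 weeks than after 18 h in corn oil livers, where no array of the 3-week group measured it well above background (adjusted p = 9.12e-05). That bound sets the 18 h mean against the lowest signal of probes that were well above background.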

How the data were processed

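RNA of 16 paraffin-embedded mouse livers was measured on Agilent 2-colour arrays, on 2 slides that each held 2 arrays of every group. The deposited scanner files, per the file headers, come from Agilent Feature Extraction 11.0.1.1 and give the intensity of each spot's 2 dyes, its local background and a log10 ratio of red over green; the build of the array design is mm9. The authors' processed values were also deposited as a table of log2 ratios. Set against the loess ratios computed here, over kept probes, they ran in the same direction with slopes of 0.729 to 0.858. Their column medians lie between -0.00919 and 0.0247, and how they were scaled is not given in the sources used here.

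From the deposited intensities the ratios were computed with limma 3.58.1 in R 4.3.3: median signals, normexp background correction with an offset of 50, and loess within arrays, with control and flagged spots (187 to 308 per array) at weight 0. No spot was saturated. The number of arrays limits the precision. The lowest correlation between 2 arrays over all probes was -0.25. Spots of 1 probe were averaged. Probes were named through their accession, and 27235 of 55681 matched a symbol. A gene's value is its brightest kept probe's.

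Each furan comparison was fitted over the arrays of its fixation time and the interaction and fixation-time comparisons over all 15 samples, with slide as a term, lmFit and eBayes. P-values were adjusted over 29690 probes. On simulated data with 200 changed probes the furan test recovered 87% of 2-fold changes at 18 h and 67% at 3 weeks. Of 1.5-fold changes it recovered 35% at 18 h and 9% at 3 weeks, so at 3 weeks most differences of that size would be missed. After 18 h the real test called 14025 probes, far more than the 200 changed in the simulation. The adjusted p is less strict with so many calls, so the simulated 18 h shares do not give the recovery in these data. The members and all lists were chosen with earlier results of these data known. Samples are listed by value for the 4 members of each branch with the smallest p in each furan and fixation-time comparison, and always for Srebf1, Srebf2, Insig1, Insig2, Sqle, Hmgcs1, Fasn and Scd1. Alternatives changed the background correction, the normalization, the source of the ratios, the filter, the probe rule, the slide term, the variance model, the threshold and the samples. One gene of the list of other pathway genes is counted in it but not reported here.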

Additional observations from a re-analysis of the deposited data

Results flagged for a closer look

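Among 99 groups of 4 samples of member genes, 3 held a sample far from the rest of its group, where chance alone marks about 1 in 20. Acly in furan sample 42 after 18 h was at -0.46, with the other 3 furan livers between 0.00 and 0.04. Hsd17b7 in furan sample 41 after 3 weeks was at -0.56, with the others between -0.93 and -0.88. Thrsp in corn oil sample 6 after 18 h was at 1.20, with the others between 0.12 and 0.30.

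The furan difference was not the same at both fixation times for 7 members by the interaction test (limma, Benjamini-Hochberg). Expressed as the difference at 3 weeks minus that at 18 h, it was 1.30 for Insig1, 0.91 for Fads1, 0.80 for Dhcr7, 0.76 for Tm7sf2, 0.72 for Fads2, -0.62 for Idi1 and -0.81 for Hsd17b7. For Hsd17b7 the other probe gave 0.88, the opposite sign (adjusted p = 0.00351). For Tm7sf2 the other probe gave 0.10 and was not called (adjusted p = 0.70).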

How the results depend on the processing

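After 18 h, the 7 members higher in furan livers became 20 under median centring and 14 with the authors' deposited values. They became 4 at a fold of at least 1.5, 4 on slide 1 alone and 0 with the share of probes above background as a covariate. That covariate was added after the data were seen, and it cannot be told apart from furan. The 6 lower became 3 under median centring and 0 with that covariate. Over all probes, calls in either direction went from 14025 to 12543 under median centring, 14094 with the authors' values and 3722 at 1.5-fold. They were 8151 on slide 1 alone and 491 with the covariate. After 3 weeks, the 0 higher became 1 without background subtraction, 11 under median centring and 1 with the authors' deposited values. Over all probes, calls in either direction went from 35 to 449, 2317 and 312 in these settings. Agilent's own log ratios gave 0 calls among all probes, with 3564 at an unadjusted p under 0.05. For the interaction, the 5 higher became 3 under median centring, and the 2 lower became 4 with the authors' deposited values. Those 2 became 1 with Agilent's log ratios, with no filter, with averaged probes and with the replicate block, and leaving out 1 sample gave 1 to 2. Over all probes, calls were 3339 under median centring, 5008 with the authors' values, 2286 with Agilent's log ratios and 2222 with no filter. Averaged probes called 2573 genes. In corn oil livers the 8 members higher after 3 weeks became 4 under median centring, 3 with averaged probes and 5 at a fold of at least 1.5. In furan livers the 13 became 5, 8 and 5. In the same settings the 18 lower in corn oil livers became 24, 20 and 14, and the 16 in furan livers 20, 17 and 15. Over all probes, calls in either direction in corn oil livers went from 17621 to 16610 under median centring and 11487 at 1.5-fold. Those in furan livers went from 19935 to 18469 and 12717. Averaged probes called 13152 genes in corn oil livers and 14867 in furan livers. Leaving out 1 sample of the 18 h furan comparison gave 6 to 8 members higher and 6 to 9 lower, with 12086 to 13045 calls over all probes. Scd1 passed in 2 of these 8 fits, and Insig2, Pmvk, Mvd, Stard4, Acly, Elovl6 and Elovl5 in 1 each. The cause of these shifts was not tested. Over all probes, the interaction called 3787, against 1565 with the replicate block.

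Among members called in at least 1 of the settings compared, median centring turned Fdps (0.42), Fdft1 (0.39), Nsdhl (0.39) and Elovl5 (0.32) upward in the furan comparison of 18 h. Members with no call in either turned too: of 11 fatty acid genes, 7 lay above 0 in place of 2 after 18 h and 9 in place of 4 after 3 weeks, and of 22 sterol genes 17 in place of 14 and 22 in place of 19. In the comparison of 3 weeks with 18 h it turned Srebf2 (-0.0787), Mvd (-0.29), Tm7sf2 (-0.64), Sc5d (-0.49), Dhcr7 (-0.24), Srebf1 (-0.42), Acly (-0.00997), Acaca (-0.19), Acacb (-0.33) and Fads1 (-0.0046) downward in furan livers, and Sc5d (-0.37), Srebf1 (-0.55) and Acacb (-0.16) in corn oil livers. Averaging the kept probes turned Mvk (-0.30) and Acaca (-0.30) in the furan comparison of 18 h and Hsd17b7 (0.0386) in the interaction. It also turned Srebf2 (-0.0313), Tm7sf2 (-0.28), Acly (-0.0568) and Acaca (-0.28) in furan livers and Srebf2 (-0.21), Mvk (-0.0859) and Acaca (-0.60) in corn oil livers for fixation time.

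The labels do not say whether same-numbered samples of 18 h and 3 weeks are pieces of 1 liver. Deviations from the group means correlated at 0.0188 to 0.182 between same-numbered samples, and 5 of 7 samples correlated best with their own number, or 2 of 7 once slide was removed. With the replicate block, 4 members were higher and 1 lower in the interaction, where Hsd17b7 (adjusted p = 0.0537) and Fads2 (adjusted p = 0.0531) lost their calls, 13 and 16 in furan livers over fixation time, and 8 and 17 in corn oil livers, where Idi1 and Msmo1 lost theirs and Thrsp passed. Over all probes the block called 19632 in furan livers and 13926 in corn oil livers over fixation time, in place of 19935 and 17621. With arrays 2.1 and 2.2 as separate samples the furan comparison at 3 weeks called 322 probes in place of 35. After 3 weeks, 38.2% of probes in furan livers and 34.2% in corn oil livers were above background.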

Other observations

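Outside the 34 members, the interaction of furan with fixation time (difference at 3 weeks minus that at 18 h) was called for 6 of 27 other genes of the pathway, against 12.6% of all genes. It was positive for 4 that had fallen with furan after 18 h: Rxra (1.04, adjusted p = 0.0021), Pklr (0.92, adjusted p = 0.01), Nfyb, a subunit of the CCAAT-binding factor NF-Y (0.76, adjusted p = 0.0185), which 2 of 4 corn oil arrays at 3 weeks measured well above background, and Mylip. No array at 3 weeks measured Mylip well above background, so its value is not given. It was negative for 2, among them Rdh11, which had risen (-0.65, adjusted p = 0.0202). These are adjusted p-values of limma over all kept probes. After 3 weeks alone, 0 of the 27 passed, and their furan differences ran from -0.41 to 0.30.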
